A study of Homo sapiens with 2 samples.

Results

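The peaks described here are the tall and narrow OTX2 peaks of D283 tumorspheres, that is, the peaks on chromosomes 1 to 22 with a pileup of at least 150 and a length below 1500 bp. They were chosen by these measured values, pileup and length. Of the 133985 peaks called on these chromosomes, 7322 (5.46%) met both limits and 126663 did not. D283 is an established medulloblastoma cell line, grown here as tumorspheres in medium with EGF and bFGF. The spheres were labelled as OTX2+ controls, and the labels give no treatment for them. There was 1 OTX2 ChIP library, made with the antibody ab21990, and 1 input library of the same cell line, so the values carry no error between replicates, and all cells are of 1 line. After the authors dropped duplicates, 61259377 ChIP fragments and 22521186 input fragments remained. The pileup is the number of fragments that cover the summit, scaled in peak calling, and 1 ChIP fragment adds 0.735 to it. All positions are of GRCh38 and are counted from 1.

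OTX2 is a homeodomain transcription factor of the developing forebrain, midbrain, cerebellum and retina, and it is expressed at a high level in many medulloblastomas. Homeodomains of its class bind DNA words with the core TAATCC. In the retina, OTX2 and the related factor CRX bind near genes that photoreceptors use. A transcription factor may bind at the transcription start site (TSS) of a gene or at distant enhancers, and the nearest gene of a distant site need not be the gene it acts on.

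Sequence of the build of the peaks was at hand for promoter windows from RefSeq (GRCh38.p14), each running from 250 bases before a start to 50 bases after it. Of the tall narrow peaks, 53 (0.72%) had their summit in such a window, against 3.68% of the remaining peaks. Of the 53, 35 lay at a protein-coding gene and 18 at a long non-coding RNA. The windows do not cover every chromosome, and at least 1 taller peak, near ENSG00000276418, lies before a start outside them. Within the windows, the 10 tallest with the summit before the start of a protein-coding gene are shown because they give the sequence beneath the signal itself. Each is written 5′ to 3′ on the strand of the gene, with up to 50 bases on either side of the summit and ending at the last base before the start at the latest. Capitals mark TAATCC or TAATCT, read on either strand.
SMIM36 (chr17:55511453-55511542, minus strand): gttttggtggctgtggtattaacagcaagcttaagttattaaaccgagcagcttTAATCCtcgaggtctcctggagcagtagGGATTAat
PCARE (chr2:29074580-29074680, minus strand): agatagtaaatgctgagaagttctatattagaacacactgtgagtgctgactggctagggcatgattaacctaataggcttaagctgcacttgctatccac
NOVA1 (chr14:26596151-26596251, minus strand): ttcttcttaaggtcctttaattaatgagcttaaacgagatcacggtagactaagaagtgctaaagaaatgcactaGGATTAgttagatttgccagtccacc
KCNV2 (chr9:2717370-2717470, plus strand): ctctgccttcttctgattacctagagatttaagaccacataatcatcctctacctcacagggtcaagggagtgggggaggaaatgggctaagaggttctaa
SKA2 (chr17:59155187-59155263, minus strand): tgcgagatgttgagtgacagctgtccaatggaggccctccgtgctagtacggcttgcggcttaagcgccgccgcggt
EYS (chr6:65707243-65707343, minus strand): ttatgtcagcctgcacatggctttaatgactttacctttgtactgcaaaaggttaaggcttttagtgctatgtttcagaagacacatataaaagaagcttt
SMARCD2 (chr17:63842727-63842827, minus strand): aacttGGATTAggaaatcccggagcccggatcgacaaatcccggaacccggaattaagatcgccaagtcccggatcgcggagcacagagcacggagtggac
CNIH4 (chr1:224356632-224356732, plus strand): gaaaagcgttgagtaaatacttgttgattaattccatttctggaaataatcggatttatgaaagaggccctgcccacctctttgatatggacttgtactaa
APH1A (chr1:150269017-150269114, minus strand): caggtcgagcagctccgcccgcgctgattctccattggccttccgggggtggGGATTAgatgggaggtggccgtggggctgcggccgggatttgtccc
GUCA1A (chr6:42173213-42173313, plus strand): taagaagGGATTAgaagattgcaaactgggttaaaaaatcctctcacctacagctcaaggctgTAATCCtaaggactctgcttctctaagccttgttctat

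Of these 10 stretches, 5 held TAATCC and 5 held neither word. SMIM36, which codes for a small membrane protein, had the tallest of these peaks, with 404 fragments, a pileup of 297.05 and a fold enrichment over the local input of 26.9. Its summit lay 40 bp before the start, and 2 TAATCC words stood in the stretch. GUCA1A, which codes for a guanylate cyclase activator of photoreceptors, also had 2 such words, with 267 fragments and a fold of 19.7. NOVA1 (a neuronal splicing factor), SMARCD2 (a SWI/SNF subunit) and APH1A (a γ-secretase subunit) each had 1. The stretches at PCARE, KCNV2 and EYS, which are expressed in photoreceptors, at SKA2, a kinetochore protein, and at CNIH4, a cargo receptor of the secretory pathway, had 0. At PCARE and EYS, TAATCC stood in the promoter window outside the stretch, 61.5 and 56.5 bases from the summit. Peaks at PDE6C and PDE6H, which code for the catalytic and the inhibitory subunit of the cone phosphodiesterase, were lower, with 245 and 224 fragments. Both were picked after their values were seen, and PDE6A, PDE6B and PDE6G, which code for subunits of the rod phosphodiesterase, had 0 tall narrow peaks near the TSS and were the nearest gene of 0. The stretch of PDE6C held TAATCC and that of PDE6H held TAATCT.
PDE6C (chr10:93612417-93612517, plus strand): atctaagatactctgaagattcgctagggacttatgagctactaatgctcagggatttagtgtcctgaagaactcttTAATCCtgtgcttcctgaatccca
PDE6H (chr12:14972944-14973041, plus strand): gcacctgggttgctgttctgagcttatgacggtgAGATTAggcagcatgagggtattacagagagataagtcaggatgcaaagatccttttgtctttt

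TAATCC stood in far more of the promoter windows at tall narrow peaks than in the others. It was present in 32 of the 53 windows that held the summit of a tall narrow peak (60.4%, Wilson 95% interval 46.9% to 72.4%) and in 514 of 4663 that held the summit of another peak (11.0%, 10.2% to 11.95%). The difference was 49.4 percentage points (Newcombe 95% interval 35.9 to 61.4). Of all 33558 windows searched, 6.37% held it, and of the 28842 not paired with a summit, 5.52%. Each summit was paired with 1 window, that of the nearest start, so overlapping windows among the 28842 may also hold a summit. TAATCT was present in 14 of the 53 windows (26.4%) against 8.02% at other peaks, a difference of 18.4 points (8.38 to 31.6). Within 50 bases of the summit, TAATCC or TAATCT was found at 32 of the 45 tall narrow peaks for which these bases all lay in the window (71.1%, 56.6% to 82.3%). The same share was 13.5% at the remaining peaks, and 4.56% of all stretches of that length in the windows held either word. Where TAATCC was present, its centre lay a median of 6.5 bases from the summit at tall narrow peaks and 13.5 bases at the remaining peaks. These intervals cover counting error only, and peaks of 1 list are not replicates. The words were not counted apart for tall peaks of 1500 bp or more or for peaks just under the height limit. Whether these shares are particular to tall narrow peaks was therefore not tested.

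**Figure D1:**
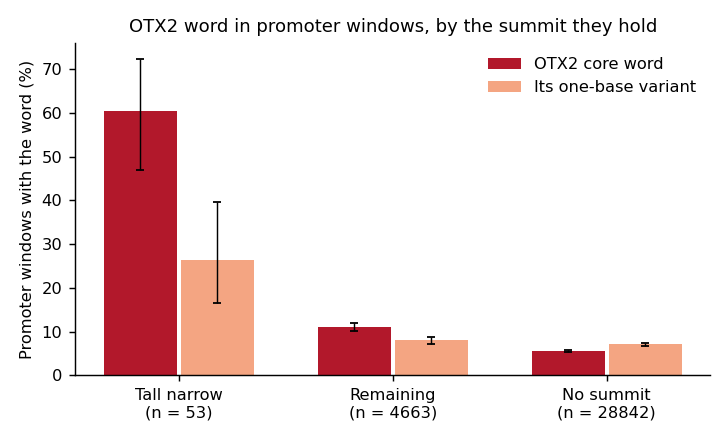
Share of RefSeq promoter windows of 300 bases that hold the OTX2 core word or its variant with another last base (vertical axis, %). Windows are grouped by the peak they were paired with (horizontal axis): tall narrow, remaining or none. Each summit was paired with the window of nearest start, so an overlapping window marked as no summit may also hold one. Error bars are Wilson 95% intervals. The core word was in 60.4% of windows at tall narrow peaks, 11.0% at remaining peaks and 5.52% of windows paired with no summit.

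Windows at tall narrow peaks were poorer in G and C, with a median of 50.3% (44 to 57.3) against 62.7% (62.3 to 63) at the remaining peaks. The share with TAATCC was higher at tall narrow peaks in each band of GC content. Below 45% GC it was 13 of 20 (65%, 43.3% to 81.9%) against 29.6% (24.7% to 35.1%), from 45% to 60% GC it was 8 of 18 (44.4%, 24.6% to 66.3%) against 13.9% (12.3% to 15.8%), and at 60% GC or more it was 11 of 15 (73.3%, 48.0% to 89.1%) against 7.62% (6.71% to 8.64%). Of the 53 windows, 6 belonged to near-identical copies, 4 of the ZNG1 family and 2 of the FAM138 family, where reads of 1 copy may be placed at another. With 1 window kept of each set of copies, TAATCC was present in 28 of 49 (57.1%).

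Height and length chose these peaks and are given as a description only. The pileup of the tall narrow peaks ran from 150 to 336.02 with a median of 183.82, which is 204 to 457 fragments with a median of 250. Counting error alone puts the lowest at 177 to 234 fragments and the highest at 416 to 501 (95% Poisson intervals), so a peak near the limit could fall on either side of it. At the limit itself stood 111 peaks with a pileup of 150 and a median fold of 20.0, and 1 fragment below it 119 peaks with a pileup of 149.26 and a median fold of 19.9. Their median length was 837.5 bp, against 426 bp for the remaining peaks. The longest members measured 1499 bp (2 peaks) and the shortest tall peaks left out 1500 bp (3 peaks). Their median fold was 22.9 against 5.80, and 63.2% reached a fold of 20, against 3.49% of the remaining peaks. The summit lay a median of 66 bp from the centre of the peak.

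**Figure D2:**
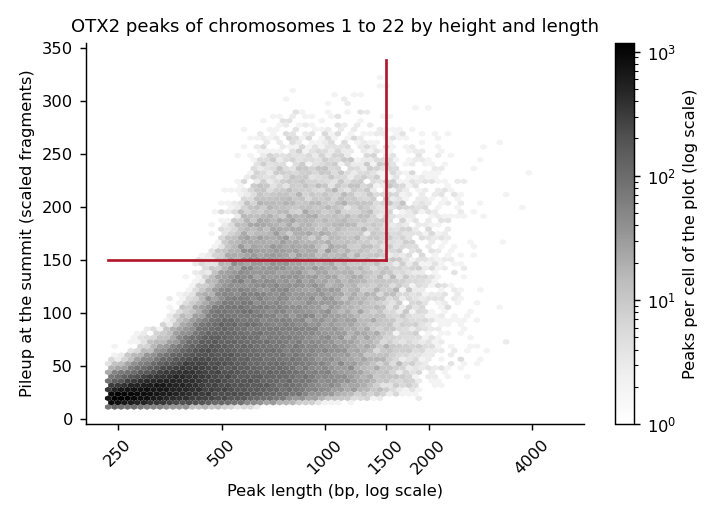
Pileup at the summit (vertical axis, scaled fragments) against peak length (horizontal axis, bp, log scale) for all 133985 OTX2 peaks of chromosomes 1 to 22, with darker cells holding more peaks on a log scale. The lines mark the limits of 150 and 1500 bp, which set apart 7322 peaks at the upper left from lower or longer ones.

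The local input, computed from the pileup and the fold, had a median of 7.0 at tall narrow peaks and 5.00 at the remaining peaks. It stood at its floor of 3.98 in 6.15% of tall narrow peaks and in 26.3% of the remaining ones, and at 3 times the floor or more in 16.4% (1204 peaks) against 3.6%. The part of local input in the height of these peaks was not tested.

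Tall narrow peaks lay near a TSS less often than the remaining peaks. With the start of the GENCODE gene record as TSS, 253 of 7322 summits (3.46%, Wilson 95% interval 3.06% to 3.90%) fell near a protein-coding TSS, that is, at most 5 kb before it or 2 kb past it, against 13962 of 126663 remaining summits (11.0%, 10.9% to 11.2%). The difference was −7.57 percentage points (Newcombe 95% interval −8.00 to −7.09). Within 1 kb of a TSS the shares were 1.04% and 6.44%. Counted from any annotated transcript start, the shares near a TSS rose to 11.2% and 19.9%, and the difference was −8.76 points (−9.50 to −7.99). Among peaks with a local input under 3 times its floor the difference was −7.63 points.

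Most tall narrow peaks lay in introns or between genes. In an intron lay 3455 summits (47.2%, 46.0% to 48.3%), outside protein-coding genes 3665 (50.1%, 48.9% to 51.2%) and in an exon 202 (2.76%, 2.41% to 3.16%). The share outside genes was 2.73 points above that of the remaining peaks (1.56 to 3.91), and the share in exons was lower, with a difference of −2.07 points (−2.44 to −1.65). The share in introns differed by −0.67 points with an interval of −1.84 to 0.51, which holds 0. Of the 3045 summits inside an intron of a canonical transcript, 27.2% were in the first intron, against 32.2% of the remaining peaks (difference −5.04 points, −6.64 to −3.38).

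The classes most like the tall narrow peaks differed from them in the share near a TSS. Among the 1042 tall peaks of 1500 bp or more, 6.62% had their summit near a TSS, 3.17 points above the tall narrow peaks (the difference, tall narrow minus tall broad, was −3.17, −4.89 to −1.74). Among the 124036 lower peaks under 1500 bp the share was 10.9%, and among the 1585 lower peaks of 1500 bp or more it was 25.5%. In exons the tall peaks of 1500 bp or more had 2.78%, and the difference of −0.02 points had an interval of −1.26 to 0.90, which holds 0. Outside genes lay 43.6% of the lower peaks of 1500 bp or more, 6.46 points below the tall narrow peaks (3.75 to 9.14). Among the tall peaks of 1500 bp or more that share was 47.7%. The difference, tall narrow minus tall broad, was 2.36 points with an interval of −0.89 to 5.59, which holds 0. The intron shares of all 4 classes lay between 47.2% and 49.5%.

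**Figure D3:**
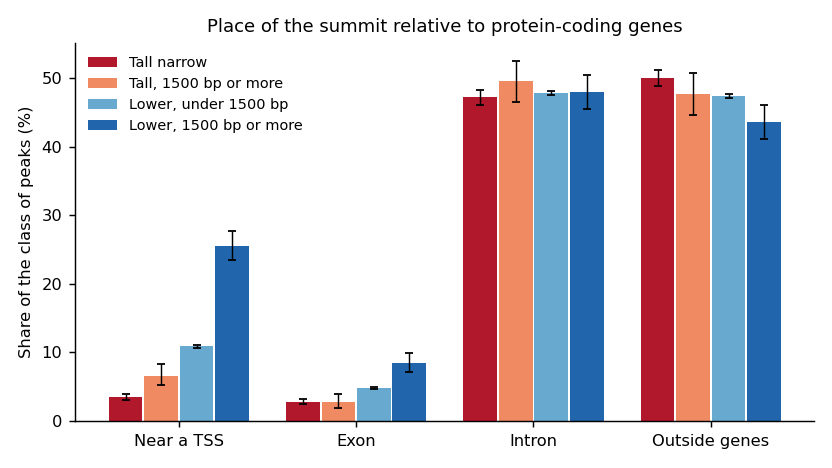
Share of summits (vertical axis, %) near a protein-coding TSS, in an exon, in an intron or outside protein-coding genes (horizontal axis), for the 4 classes of peaks by height and length, with Wilson 95% intervals. A summit near a TSS is counted there and also in its exon, intron or outside class. Near a TSS the tall narrow peaks stood lowest at 3.46% and the lower peaks of 1500 bp or more highest at 25.5%. The bars for introns lay between 47.2% and 49.5%, and those for outside genes between 43.6% and 50.1%.

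Within peaks under 1500 bp the share near a TSS fell with height. It was 13.2% (12.8% to 13.6%) below a pileup of 25, 9.43% from 50 to 75, 4.82% (4.22% to 5.51%) in the band just below 150, 3.96% (3.31% to 4.75%) in the band just above it and 3.13% (2.44% to 3.99%) from 200 to 250. Above the limit of 150 the intervals of all bands overlapped. Length went the other way among the remaining peaks, whose share near a TSS was 11.6% at 500 to 750 bp and 22.1% in the longest band, up to 1500 bp. Tall narrow peaks of those lengths had 3.30% (2.68% to 4.05%) and 3.98% (2.85% to 5.54%), and these intervals overlap.

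The median distance from the summit to the nearest TSS was 87.9 kb (order-statistic 95% interval 83.9 to 92.5) for tall narrow peaks and 61.9 kb (61.1 to 62.6) for the remaining peaks. From 50 to 500 kb lay 54.2% of tall narrow peaks against 46.3%, a difference of 7.97 points (6.79 to 9.14). Tall peaks of 1500 bp or more had 53.6% there, from which the tall narrow peaks differed by 0.59 points with an interval of −2.63 to 3.83, which holds 0. Beyond 500 kb lay 9.94% of tall narrow peaks against 8.54% of the remaining ones, a difference of 1.41 points (0.72 to 2.13). With any transcript start as TSS the medians were 38.0 kb (36.1 to 40.1) and 24.5 kb (24.2 to 24.9). On the upstream side of the nearest TSS stood 44.3% of tall narrow peaks and 43.4% of the remaining peaks, a difference of 0.87 points with an interval of −0.30 to 2.04, which holds 0.

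**Figure D4:**
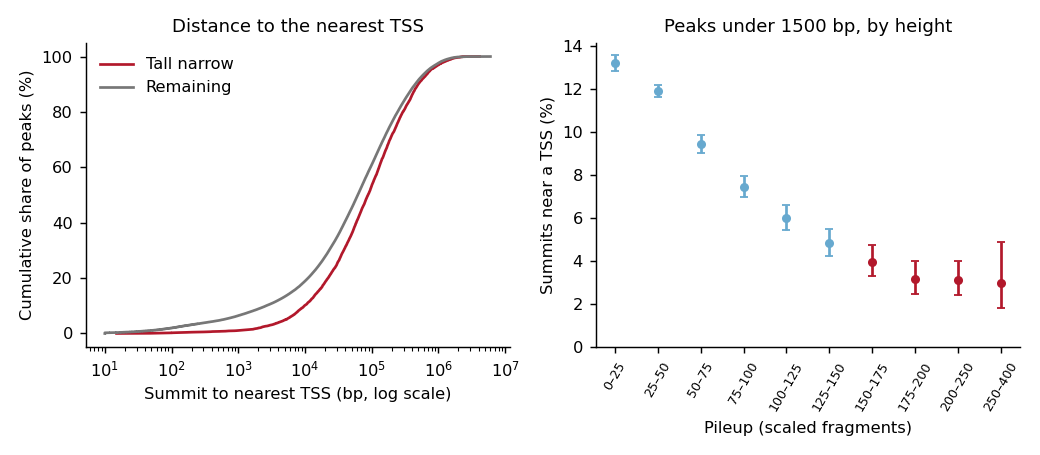
Left, cumulative share of peaks (vertical axis, %) by the distance from summit to nearest protein-coding TSS (horizontal axis, bp, log scale) for tall narrow and remaining peaks. Right, share of summits near a TSS (vertical axis, %) by pileup (horizontal axis) for peaks under 1500 bp, with Wilson 95% intervals and the tall narrow peaks in red. The curve of the tall narrow peaks lies to the right, with medians of 87.9 and 61.9 kb, and the share falls from 13.2% to about 3% with height.

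Tall narrow peaks stood closer to other peaks than the remaining peaks did, as the tall peaks of 1500 bp or more also did. The next peak of any kind lay a median of 3.35 kb away (3.23 to 3.48), against 4.27 kb (4.24 to 4.32) for the remaining peaks, and another peak lay within 10 kb of 82.6% against 74.1% (difference 8.51 points, 7.59 to 9.40). Another tall narrow peak lay within 100 kb of 61.5% of them and within 100 kb of 48.3% of the remaining peaks (difference 13.3 points, 12.1 to 14.4). Among tall peaks of 1500 bp or more the next peak lay 3.28 kb away (3.05 to 3.56), 89.3% had another peak within 10 kb and 67.6% had a tall narrow peak within 100 kb. These shares also depend on how many members a chromosome holds, which is described next.

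The share of peaks that were tall and narrow differed between chromosomes. It was lowest on chromosome 7, with 56 of 4339 peaks (1.29%, 1.00% to 1.67%), and highest on chromosome 8, with 775 of 7633 (10.2%, 9.50% to 10.9%). On the other 20 chromosomes it ran from 3.22% on chromosome 19 to 7.07% on chromosome 21, with 6.86% on chromosome 17, 6.78% on chromosome 13 and 6.64% on chromosome 1. Per Mb there were 0.35 members on chromosome 7 and 5.35 on chromosome 8. The local input moved with this order. Its median over the remaining peaks was 3.99 on chromosome 7 and 7.84 on chromosome 8. The median of chromosome 7 stood at the floor of 3.98, below which no local input was recorded. Over the 22 chromosomes the median local input ran with the share of members at a Pearson r of 0.90 and a Spearman rho of 0.69. Without the 2 chromosomes farthest from the median local input these were 0.80 and 0.61. Those points share 1 pair of libraries and are a description.

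When peaks were counted by a fold of at least 20 in place of the 2 limits, the order was different. Chromosomes 17 and 8 then had the lowest shares, 4.60% (4.03% to 5.25%) and 4.65% (4.20% to 5.15%), against 6.76% over all 22 chromosomes, and chromosome 7 had 6.84% (6.13% to 7.64%). The correlation with the local input was then −0.67 (rho −0.25), and −0.19 (rho −0.003) without the 2 farthest chromosomes. The fold is divided by the local input, so a lower share by fold where the local input is high is partly built in. Within chromosome 8, the stretches of 10 Mb from 70 to 130 Mb had 11.3% to 16% tall narrow peaks, with median local inputs of 9.36 to 12.4, and the other stretches had 2.72% to 7.82%, with 4.21 to 4.82. Of the 500 members with a pileup above 250, 136 were on chromosome 8. The part of local input in these shares was not tested. The near-TSS share of members was 12 of 80 (15%) on chromosome 19, where it was 37.2% of the remaining peaks, and 29 of 316 (9.18%) on chromosome 17, against 18.6%. On chromosome 16 it was 0 of 103, against 16.8% of the remaining peaks. An upper limit set at 3 counts in 103 would be 2.91%, which is not a Wilson limit as used for the other shares.

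**Figure D5:**
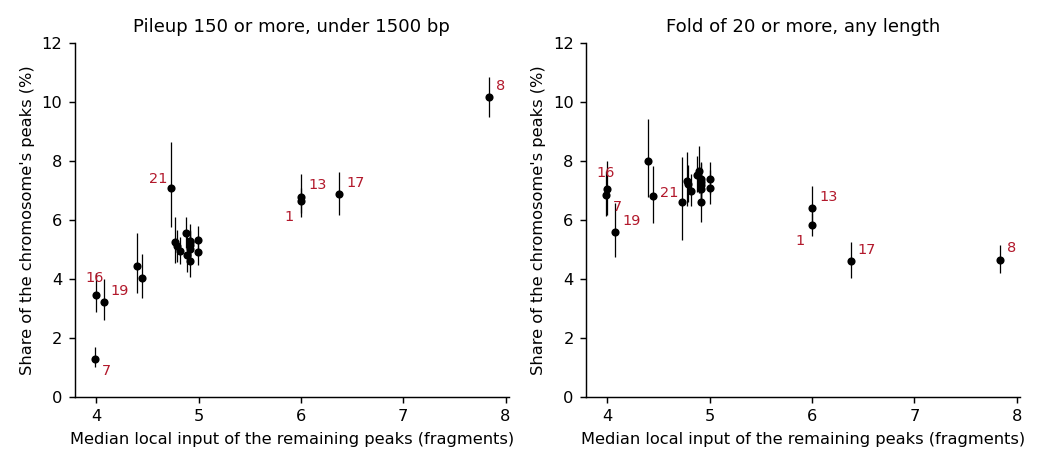
Share of each chromosome's peaks (vertical axes, %) that were tall and narrow (left) or had a fold of at least 20 (right), against the median local input of its remaining peaks (horizontal axes, fragments), with Wilson 95% intervals and some chromosomes numbered. Chromosome 8 stands highest on the left at 10.2% and among the lowest on the right at 4.65%.

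A set of 20 members on chromosome 21 stood apart. They lay between 8212430 and 8988436, had a fold of 1.24 to 3.39 and a local input of 80.8 to 184, and were the members with a fold under 5 among all 7322. Of the 20, 15 overlapped a RefSeq record of the 45S ribosomal RNA precursor (RNA45SN1, RNA45SN2 or RNA45SN3) and 19 lay within 50 kb of one. These are near-identical repeats, so the reads cannot be assigned to single copies. The nearest protein-coding TSS among the gene records used was that of TPTE, at least 1533 kb away. Beyond 10 Mb, 5.62% of the peaks of chromosome 21 were tall and narrow.

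The tallest single peaks were mostly on chromosome 8. Of the 20 tallest, 15 lay there, 3 on chromosome 1 and 2 in 45S records of chromosome 21, with a median fold of 15.4, and 10 of the 20 were in introns and 10 outside genes. The tallest of all, chr8:127566833-127568055, had 457 fragments (95% Poisson interval 416 to 501), a pileup of 336.02, a fold of 12 and a local input of 27, and its nearest TSS was that of MYC, a transcription factor of cell growth, 167753 bp downstream of it. A second peak on the same side of MYC, at 124759 bp, had 436 fragments and a fold of 12.4. Next in height were peaks in intron 4 of CNBD1 (452 fragments, fold 18.5) and nearest to STK3, a kinase of the Hippo pathway (449 fragments, fold 19.1), and HAS2, which makes hyaluronan (446 fragments, fold 20.0). TRIQK, GRHL2, TMEM74, KCNV1, POU5F1B, ENPP2 and GEM were nearest to others of the 20 on chromosome 8. Outside chromosomes 8 and 21 the tallest lay in intron 18 of RABGAP1L on chromosome 1, 191637 bp upstream of CACYBP, with 437 fragments and a fold of 35.6, and was followed by one in intron 19 of NFASC nearest to CNTN2 (428 fragments, fold 25.3) and one in intron 3 of HEATR1 (428 fragments, fold 15.8).

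The members of highest fold were other peaks, at low input, by which the fold is divided. The 10 highest had folds of 52.6 to 56.1 at local inputs of 3.99 to 4.21, lay on 6 chromosomes with 0 on chromosome 8, and 6 of them were in introns. The highest, chr5:120621132-120621978 in intron 1 of PRR16, had 380 fragments and a fold of 56.1, 157264 bp downstream of the TSS. ZNF668, a zinc finger gene, followed with a peak in its intron 1 (394 fragments, fold 55.8), then C6orf118, CDKAL1 (intron 4), TMPO, AGA, CACNG3, RAP2B, NTS and NTF3, the last a neurotrophin gene, 256403 bp from a peak with a fold of 52.6. The tallest member of each chromosome had from 216.17 (nearest to ZNF722, chromosome 7) to 336.02 in pileup. Among them were peaks nearest to SEC63, IPO11, ASIC2, ABCC4, SI, CNTNAP3C, NEDD4L, KBTBD3, CACNG2, NDUFAF5, BEST3, DDX60L, ADARB2, TMEM17, TNFAIP8L1, SEMA6D and PPP4R3A.

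Near a TSS the tallest peaks were those at ENSG00000276418 (159 bp upstream, within intron 1 of TPD52, 442 fragments, fold 14.8), MPP2 (4843 bp upstream, 409 fragments, fold 16.8), SMIM36, PIP4P2 (4783 bp upstream, 399 fragments, fold 17.3) and SNCAIP (3693 bp upstream, 389 fragments, fold 41.0). SNCAIP codes for a protein that binds α-synuclein. The tallest in exons were nearest to SEC63, LHX4, a LIM homeodomain factor, TBC1D16, SCYL3 and TAC4, with pileups of 311.76, 306.61, 283.82, 277.2 and 272.79.

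By nearest TSS, the tall narrow peaks fell to 3691 of 18978 protein-coding genes (19.4% of all such genes). Of these, 2117 were nearest to 1 member, 1102 to 2 or 3, and 472 to 4 or more, and the 472 together took 2659 members (36.3%). Genes with 4 or more had a median of 0.68 Mb of DNA closer to them than to another TSS, against 0.059 Mb over all genes, and a gene with more DNA around it can take more peaks. In the narrower window near the TSS, as defined above, 269 genes (1.42% of 18978) held the summit of a tall narrow peak, 6 of them more than 1, while 10942 (57.7%) held the summit of any peak.

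Nearest to at least 12 members were 19 genes, 9 of them on chromosome 8. After TPTE (21, of which 20 were the peaks with a fold under 5) came CSMD3, which codes for a large membrane protein of neurons, with 20 of its 115 peaks (17.4%, in 2.92 Mb), GPC5 with 19 of 145 (13.1%, 2.78 Mb) and KCNV1, a potassium channel subunit, with 19 of 80 (23.8%, 1.87 Mb). HAS2 followed with 17 of 74 and GPC6, like GPC5 a glypican that carries heparan sulfate, with 16 of 99. POU5F1B had 15 of 63, and DUSP10, a MAP kinase phosphatase, had 15 of 75. PLXNA2, a semaphorin receptor, had 14 of 95, DCT 14 of 74, SEL1L 14 of 129 and TMEM74 14 of 39. ABRA, LRATD2 and PIK3C3 had 13 each, and CA10, EXT1, OXR1 and SOX9, a transcription factor of glia and cartilage, had 12 each. The median local input of the remaining peaks was 9.10 to 16.4 at the 9 genes on chromosome 8, above 5.00 over all remaining peaks. PLXNA2 had 7.0, DUSP10 7.15, GPC5 7.49 and SOX9 6.60.

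Genes of the photoreceptor list on chromosomes 1 to 22 had tall narrow peaks near the TSS in 2 of 29 cases (6.90%, against 1.42% of all genes). These were GUCA1A and CNGA1. CNGA1, the rod channel gated by cGMP, had a peak 1732 bp upstream, within intron 1 of NIPAL1, with 334 fragments and a fold of 30.7. By nearest TSS, 8 of the 29 (27.6%, against 19.4%) had a member, and the most were at IMPG1 (7 of 53 peaks) and IMPG2 (5 of 32), which code for proteins of the matrix between photoreceptors. UNC119, PDC, ISL2 and TULP1 were the others beside CNGA1 and GUCA1A. Of the 270 peaks nearest to a gene of this list, 22 were tall and narrow, against 5.46% of all peaks. With so few genes, these counts are a description.

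Of the 40 neural and cerebellar transcription factors, 0 had a tall narrow peak near the TSS, where the share over all genes was 1.42%, and 26 (65%) had the summit of some peak there, against 57.7% of all genes. By nearest TSS 19 of the 40 (47.5%) had at least 1, against 19.4% of all genes. Of the 902 peaks nearest to these factors, 49 were tall and narrow, where the share over all peaks was 5.46%. These genes had a median of 0.28 Mb of DNA nearest to them, against 0.059 Mb over all genes. OTX2 itself was nearest to 6 of them among its 56 peaks, the tallest at chr14:56890922-56892083 with 276 fragments and a fold of 31.8, 74629 bp upstream of the TSS. NR2F1 and NR2F2 had 5 each and SOX11 had 4. NEUROG2, a proneural factor, had 3, the tallest with 351 fragments and a fold of 45.2 in intron 16 of ZGRF1. OTX1 had 2, the tallest with 315 fragments.

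Of 67 axon guidance genes on chromosomes 1 to 22, 2 (2.99%) had a tall narrow peak near the TSS, against 1.42% of all genes. Genes of these families on chromosome X, L1CAM included, were not counted. By nearest TSS, 27 (40.3%) were nearest to one, against 19.4%. Of the 1760 peaks nearest to these genes, 100 were tall and narrow, where the share over all peaks was 5.46%. The peak at SEMA6C had its summit 99 bp upstream with 211 fragments, close to the limit of 204, and that at UNC5C, a netrin receptor, lay 3460 bp upstream with 334 fragments and a fold of 29.1. PLXNA2 had the most by nearest TSS, and its tallest, 88537 bp upstream, had 391 fragments and a fold of 32.1. EFNA5 and ROBO1 had 8 each, UNC5D 7, EPHA4 and ROBO2 6 each, and SEMA6D 5, whose tallest had 371 fragments at 529375 bp upstream. The median DNA nearest to a gene of this list was 0.16 Mb.

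The 37 cell cycle genes and the 82 cytosolic ribosomal protein genes served as lists with other roles. Some peak summit stood near the TSS of 31 of 37 (83.8%) and 76 of 82 (92.7%), against 57.7% of all genes. A tall narrow one stood at 1 each (2.70% and 1.22%), near the 1.42% of all genes. It lay at CCNA2, the cyclin of S phase (284 bp upstream, 215 fragments, fold 17.7), and at RPL7 (1899 bp downstream, 356 fragments, fold 20.2). By nearest TSS the counts were 5 of 37 (13.5%) and 13 of 82 (15.9%), against 19.4% of all genes. Of the peaks nearest to these genes, 5 of 150 and 24 of 508 were tall and narrow, against 5.46% of all peaks.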

How the data were processed

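One deposited peak list of an OTX2 ChIP library against an input library, both from D283 tumorspheres, was analysed. Per the methods and processing notes of the submitters, reads were mapped to GRCh38 with Bowtie2 2.2.4, peaks were called with MACS2 2.1.0.20140616 at a q-value cutoff of 0.05 and blacklisted regions were masked. The list was not compared with a blacklist here, so that masking was not checked. The list holds 20 tall narrow peaks with a fold under 5 on chromosome 21, 15 of them in 45S ribosomal RNA records. Pileup values were deposited as a signal: scaled coverage by fragments at each summit. Fold enrichment was deposited as a ratio, (pileup + 1) over (local input + 1), from which local input was solved. The authors' deposited −log10 q-value served for 1 alternative, and their p-values were not used. The ChIP to input depth ratio was 2.72, and the shallower input limits how precise a fold can be.

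Protein-coding genes came from GENCODE release 44 in its version mapped to the preceding genome build, with the GRCh38 positions recorded for their exons. Genes without a place in that build are missing from these records, so a nearer TSS may be missed. Promoter sequences came from RefSeq GRCh38.p14, and of 33725 windows 33558 were left after dropping repeats. No window of chromosome 8 was used. Both strands were searched for TAATCC and TAATCT. The words share no 6-base site. Shares have Wilson, differences Newcombe and medians order-statistic 95% intervals. No p-value was computed, since there was 1 library per condition. Placement was tested on simulated positions, where all 900 equalled a direct comparison. The genes named were those nearest to the 20 tallest members, to the 10 of highest fold, to the 5 tallest of each location and to the tallest of each chromosome, those nearest to at least 4 members (472 in all, of which those with at least 12 are named) and list genes with a member near the TSS. The members and lists were chosen with earlier results of these data known. Alternatives were other limits of height and length, other sets of remaining peaks, peaks of low local input, other TSS, window and gene records, and leaving out chromosome 7 or 8. SciPy 1.17.1, NumPy 2.4.6, pandas 2.3.3 and Python 3.11.15 were used, with Matplotlib 3.10.9 for plots.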

Additional observations from a re-analysis of the deposited data

Results flagged for a closer look

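Peaks that met both limits were also present outside chromosomes 1 to 22, where the comparisons above did not look. Chromosome X held 29 tall narrow peaks among 3111 (0.932%), with folds of 21.9 to 41.8 and a highest pileup of 225.73. The median local input of the other peaks there was 3.99. Unplaced sequences of the assembly held 23, on 7 sequences, of which 17 lay on GL000220.1 (9) and KI270733.1 (8). Of these 23, 17 had a fold under 5, and their local inputs ran from 5.00 to 166.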

How the results depend on the processing

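No paired analysis was possible because each condition had a single library. Of 80 alternatives computed, 0 turned the direction of a resolved difference. Only those for the differences near a TSS and outside genes could do so, since their main intervals exclude 0. The rest were for counts, shares, medians or the intron difference, which had no resolved direction to turn. The 80 also include settings that could not change a value, as given below. The number of tall narrow peaks was 18113 with a pileup of at least 100 and 2452 with at least 200, and the genes nearest to them numbered 6402 and 1688, by construction of the limit. The median distance to the nearest TSS was 38.0 kb with any transcript start and 80.8 kb with a pileup of at least 100. The difference in the share near a TSS was −8.76 points with any transcript start and −6.84 points with a pileup of at least 100, and it stayed within the interval of the main value under the other 9 alternatives, leaving out chromosome 7, chromosome 8 and peaks of high local input included. The differences in introns and outside genes stayed within their intervals under all 10 alternatives each. Any transcript start as TSS, among these, does not enter the 2 classes, so it could not change their differences or shares. The intron difference, whose interval holds 0, was above 0 (0.27 points) with a pileup of at least 100. Near a TSS lay 3.55% of summits with RefSeq gene records, 3.92% when at least 1 bp of a peak had to lie in the window and 1.04% within 1 kb. RefSeq records gave no exons, so introns were not recomputed with them. Leaving out members with a fold under 5, which left 7302, and keeping 1 of each set of copied promoters were chosen after seeing the data. Whether input depth limits a fold most at the floor was not tested.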
